A study of Mus musculus with 9 samples.

Results

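The IL-4 receptor pathway was described in splenic B cells through 10 genes, which were taken by gene symbol from the deposited expression table: the receptor chains Il4ra, Il2rg and Il13ra1, the kinases Jak1 and Jak3, the transcription factor Stat6, and the feedback inhibitors Socs1, Socs2, Socs3 and Cish. All 10 were present among the 17596 genes of the table, and all 10 were among the 10823 genes tested. IL-4 binds the chain encoded by Il4ra, which pairs on lymphocytes with the common gamma chain encoded by Il2rg, or with the chain encoded by Il13ra1 in a receptor that also binds IL-13. In the pair with the common gamma chain, JAK1 and JAK3 are held and phosphorylate the receptor. STAT6 then docks there, is phosphorylated, pairs and enters the nucleus. In B cells this signal is known for class switching to IgG1 and IgE and for raising CD23 and MHC class II. Proteins of the SOCS family, to which CISH belongs, are made after cytokine stimulation and restrain receptor signalling.

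The study examined the monocarboxylate transporter MCT1, which carries lactate and pyruvate across the membrane, in B cell activation. Primary B cells came from the spleens of Mb1Cre mice, used as control, and of Mct1f/fMb1Cre mice (titled Mctf/fMb1Cre in the labels), which carry 2 floxed copies of Mct1; the mice used in the study were 6 to 8 weeks old. Cre was present in both genotypes and is driven by Mb1 (Cd79a), so that recombination is directed to the B cell lineage. RNA was sequenced from 2 control and 2 Mct1f/fMb1Cre libraries of untreated cells on day 0, and from 2 control and 3 Mct1f/fMb1Cre libraries on day 3. The latter cells had been cultured for 3 days with the Toll-like receptor ligand LPS at 10 μg/ml, together with IL-4 at 50 ng/ml. Every day 3 library therefore had both agents, and the effect of IL-4 cannot be told apart from that of LPS or of culture. The labels name no mouse or culture for a library, so the p-values measure only the spread between these samples, which may be technical.

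Values are FPKM, in which the fragments of a gene are divided by its length in kilobases and by the library's mapped fragments in units of 1000000. They are thus scaled to gene length and can be compared between genes, but they hold no read counts, so the depth behind each value is unknown. Summed over all genes they reached 477079 to 491459 on day 0 and 547355 to 563586 on day 3. Slc16a1, the gene symbol of Mct1, was at 4.33 and 3.80 FPKM in the day 0 controls and at 3.71 and 4.06 FPKM in the day 0 Mct1f/fMb1Cre libraries. On day 3 it was at 22.6 and 23.0 FPKM in the controls and at 10.8, 9.81 and 9.50 FPKM in the Mct1f/fMb1Cre libraries (log2 fold change -1.11, limma adjusted p = 9.07e-06). The transcript thus followed the label on day 3, while on day 0 the genotypes overlapped (adjusted p = 0.844). B cell markers were high in every library, with a summed level of 6 genes of 4183 to 4612 FPKM on day 0 and 2182 to 2271 FPKM on day 3. The 8 myeloid markers summed to 1020 and 1214 FPKM in the day 0 controls, to 1829 and 1107 FPKM in the day 0 Mct1f/fMb1Cre libraries, to 17.3 and 15.5 FPKM in the day 3 controls and to 25.3, 23.1 and 26.2 FPKM in the day 3 Mct1f/fMb1Cre libraries. T cell markers summed to 26.7 to 30.1 FPKM on day 0 and 0.77 to 1.37 FPKM on day 3, NK cell markers to 31.2 to 40.8 and 5.77 to 7.37 FPKM, and erythroid markers to 84.3 to 154 and 0.03 to 0.52 FPKM. In such bulk samples, fewer cells of a type and less RNA per cell cannot be told apart.

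Of the promoters of these genes, 2 hold sequence of the kind that STAT dimers recognise, those of Cish and Socs3, and both are shown for that reason. A part of these letters in the levels of the 2 genes was not tested. Promoters were taken from RefSeq (GRCm38.p6) as 250 bases before to 50 bases after the annotated start, and an entry was found for 9 of the 10 genes, not for Socs2. Searched on both strands, TTCNNNGAA was present in 2726 of 32851 promoters (8.30%) and in those of Cish and Socs3. The same half-sites spaced by 4 bases instead of 3, which STAT6 favours, were present in 2284 promoters (6.95%) and in none of the 9; a match is only a run of letters, and its absence says only that the letters are not in this window. Cish lies on chromosome 9 (107296659 to 107302784, plus strand), and its 2 matches, in capitals below, begin at bases 1 and 12 of the transcript in the first exon. Socs3 lies on chromosome 11 (117966079 to 117970336, minus strand), and its match begins 154 bases before the RefSeq start of 117969366, in no annotated exon. A stretch of bases shortly after that start was not found in any GENCODE transcript of Socs3.
Cish, chr9:107296654-107296683, plus strand: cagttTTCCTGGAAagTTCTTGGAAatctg
Socs3, chr11:117969507-117969525, minus strand: cagccTTCTTAGAAgggag

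The 250 bases before the RefSeq promoter starts of Socs3 and Socs1 are given because both genes had a limma adjusted p under 0.05 between the genotypes on day 3. They are unlike in position: the Socs3 stretch, with its match, lies inside the span given for that gene, and the Socs1 stretch lies outside its gene. The former is 71.6% G and C and holds the single match in capitals, and the latter, upstream of the gene on chromosome 16 (10783808 to 10785536, minus strand), is 61.2% G and C and holds no match.
Socs3, chr11:117969367-117969616, minus strand: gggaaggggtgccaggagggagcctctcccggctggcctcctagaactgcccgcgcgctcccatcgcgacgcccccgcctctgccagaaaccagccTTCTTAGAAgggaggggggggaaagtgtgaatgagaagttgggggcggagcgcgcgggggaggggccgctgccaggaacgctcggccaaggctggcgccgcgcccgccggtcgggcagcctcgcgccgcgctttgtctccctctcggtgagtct
Socs1, chr16:10785537-10785786, minus strand: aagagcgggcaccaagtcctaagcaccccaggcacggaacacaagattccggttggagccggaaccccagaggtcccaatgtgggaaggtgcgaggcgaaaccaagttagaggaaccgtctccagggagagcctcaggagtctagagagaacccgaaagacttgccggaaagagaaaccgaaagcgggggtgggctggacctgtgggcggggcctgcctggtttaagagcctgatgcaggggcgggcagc

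On day 0 Il2rg, Il4ra, both kinases and Stat6 stood above all 4 inhibitors as transcripts, while the receptor chain Il13ra1 lay below Socs1 and Socs3. In both genotypes the FPKM fell in the order Il2rg, Jak1, Stat6, Il4ra, Jak3, Socs1, Socs3, Il13ra1, Socs2 and Cish. In the control cells this order ran from 360.8 ± 0.983 FPKM (SD, n = 2) for Il2rg to 0.745 ± 0.106 FPKM (SD, n = 2) for Cish. On day 3 the control order was Il2rg, Il4ra, Socs1, Cish, Socs2, Jak1, Stat6, Jak3, Socs3 and Il13ra1, so that 3 of the 4 inhibitors stood above both kinases and Stat6. The Mct1f/fMb1Cre cells had the same order on day 3 except that Jak1 stood above Socs2. In none of the 4 groups did the libraries of neighbours in the order overlap.

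**Figure D1:**
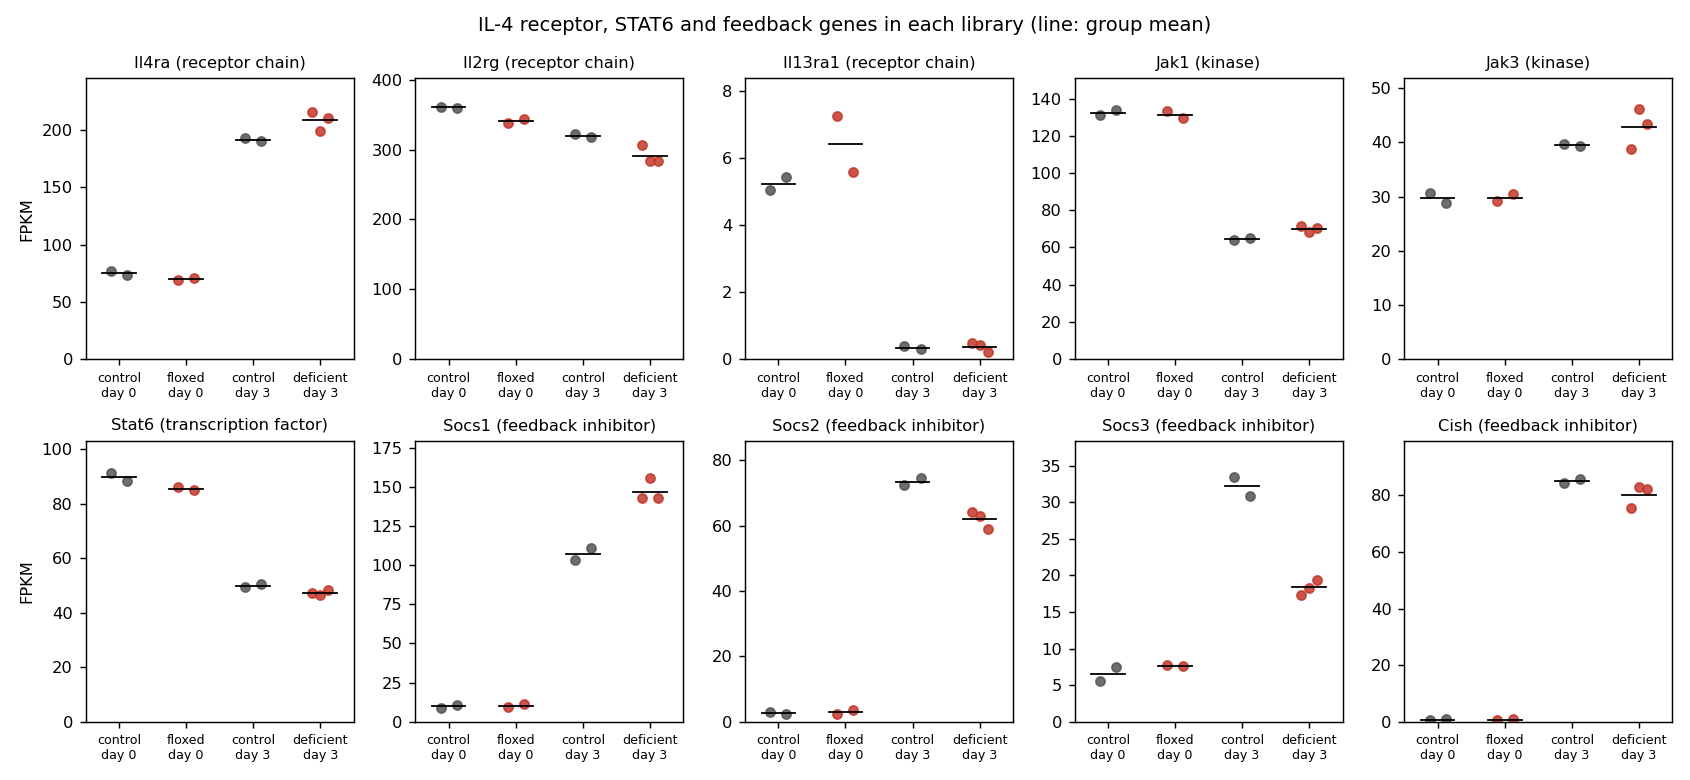
Level of each of the 10 genes in FPKM (y axis, from 0, with its own range in each panel) in the 9 libraries, grouped by genotype and day (x axis); points are libraries, lines are group means, and "floxed" and "deficient" are the Mct1f/fMb1Cre libraries on day 0 and day 3. Socs3 on day 3 is the panel with the widest gap between the genotypes for its level (30.9 and 33.5 FPKM against 17.4 to 19.4 FPKM).

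The first question was how the pathway changed with activation. A gene was called changed at an adjusted p under 0.05 (limma on log2(FPKM + 1), adjusted over all tested genes) with a log2 fold change above 0.5 in size. By this rule 5 of the 10 genes rose and 3 fell in control cells, where 24.8% and 33% of all tested genes rose and fell. In Mct1f/fMb1Cre cells 6 rose and 3 fell, beside 23.4% and 33.2% of all tested genes. The median log2 fold change of the 10 genes was 0.87 in the control cells and 0.83 in the Mct1f/fMb1Cre cells, and that of all tested genes was -0.12 and -0.14, respectively. The latter depends on scaling: in control cells it was -0.31 after scaling to a common total and 0.065 after median-of-ratios scaling.

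Among the receptor chains, Il4ra (chromosome 7, 125552271 to 125579474), the chain that binds IL-4, rose. It was at 76.7 and 73.8 FPKM in the day 0 controls and at 193 and 190 FPKM in the day 3 controls, a 2.55-fold higher mean (log2 fold change 1.34, SE 0.047, limma adjusted p = 3.82e-10). In Mct1f/fMb1Cre cells it went from 68.7 and 71.0 FPKM to 216, 199 and 211 FPKM, 2.99-fold higher. All day 3 libraries thus lay above all day 0 libraries. Il2rg (X chromosome, 101264385 to 101268255), the common gamma chain shared with the receptors for IL-2, IL-7, IL-9, IL-15 and IL-21, had the highest level of the 10 genes in every group and moved little. It was at 361.5 and 360.1 FPKM in the day 0 controls and 322 and 318 FPKM in the day 3 controls. This difference of -0.17 on the log2 scale passed the adjusted p (0.0053) but not the fold limit, and it was 0.04 after median-of-ratios scaling.

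Il13ra1 (X chromosome, 36112108 to 36171262), the chain that forms the second receptor, was low on day 0 and nearly lost in culture. It was at 5.03 and 5.44 FPKM in the day 0 controls and at 0.38 and 0.30 FPKM on day 3, a 15.4-fold lower mean (log2 fold change on the FPKM + 1 scale -2.22, SE 0.13, limma adjusted p = 2.78e-08). The Mct1f/fMb1Cre libraries were at 7.26 and 5.57 FPKM on day 0 and at 0.49, 0.41 and 0.20 FPKM on day 3, 17.5-fold lower. The library with 7.26 FPKM, Mct1f/fMb1Cre replicate 1 of day 0, also had the highest myeloid marker sum, 1829 FPKM. All 8 myeloid markers fell between the days in both genotypes, and their part in the fall of Il13ra1 was not tested. Il2rg and Il13ra1 are X-linked, and the Y-linked gene Ddx3y was at 0.24 and 0.02 FPKM in the day 0 controls and at 31.1 and 0.20 FPKM in the day 0 Mct1f/fMb1Cre libraries, but at 14.7 to 16.9 FPKM in the day 3 libraries. In the control cells the day and the sex of the source therefore cannot be told apart.

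The kinases lay on opposite sides of their day 0 levels. Jak1 (chromosome 4, 101151974 to 101265282), which is bound by the Il4ra chain, was at 131 and 134 FPKM in the day 0 controls and at 64.1 and 64.9 FPKM in the day 3 controls, 2.05-fold lower (log2 fold change -1.02, SE 0.041, limma adjusted p = 9.71e-10). Jak1 fell in Mct1f/fMb1Cre cells from 133 and 129 FPKM to 71.4, 68.5 and 70.4 FPKM, 1.87-fold lower. Jak3 (chromosome 8, 71676383 to 71690577), which is bound by the common gamma chain, was at 30.6 and 28.8 FPKM in the day 0 controls and at 39.7 and 39.4 FPKM on day 3. Its log2 fold change of 0.40 in the controls passed the adjusted p (2.74e-04) but not the fold limit. It rose in Mct1f/fMb1Cre cells from 29.2 and 30.5 FPKM to 38.9, 46.2 and 43.4 FPKM, with a log2 fold change of 0.50 (limma adjusted p = 2.04e-05) just above the limit. That call was lost without the first day 0 Mct1f/fMb1Cre library (log2 fold change 0.47) and without the second (0.45) or the third (0.49) of day 3. It was also lost with scaling to a common total (0.33), a pseudocount of 5 (0.45) and quantile normalization (0.49).

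Stat6 (chromosome 10, 127642955 to 127660987), the transcription factor that IL-4 activates, fell by nearly the same factor in both genotypes. It was at 91.3 and 88.2 FPKM in the day 0 controls and at 49.2 and 50.5 FPKM in the day 3 controls, 1.80-fold lower (log2 fold change -0.83, SE 0.042, limma adjusted p = 6.78e-09). In Mct1f/fMb1Cre cells it went from 85.9 and 85.1 FPKM to 47.2, 46.4 and 48.4 FPKM, 1.81-fold lower. The difference between these log2 fold changes was -0.0059 (95% interval -0.13 to 0.12, limma adjusted p = 0.962).

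The 4 inhibitors rose together from 18.0 and 21.6 FPKM in sum to 293 and 302 FPKM in the control cells. Cish (CISH), which binds phosphorylated cytokine receptors, showed the steepest rise: it was at 0.67 and 0.82 FPKM in the day 0 controls and at 84.3 and 85.9 FPKM in the day 3 controls, a 114-fold higher mean (log2 fold change on the FPKM + 1 scale 5.63, SE 0.089, limma adjusted p = 2.79e-12). Ordered by p, it was the 25th of all tested genes in the control cells and the 19th in the Mct1f/fMb1Cre cells, where it went from 0.48 and 0.80 FPKM to 75.5, 83.1 and 82.3 FPKM. Socs2 (chromosome 10, 95383903 to 95417321), an inhibitor best known for growth hormone signalling, went from 3.03 and 2.36 FPKM to 72.5 and 74.4 FPKM in the controls, 27.2-fold higher (log2 fold change 4.34, SE 0.11, limma adjusted p = 4.36e-11). In Mct1f/fMb1Cre cells it went from 2.49 and 3.56 FPKM to 64.2, 63.0 and 59.1 FPKM, 20.5-fold higher.

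Socs1, whose product binds and inhibits JAK kinases and is a known brake on IL-4 signalling, was the most abundant inhibitor on both days. It went from 8.67 and 10.9 FPKM to 103 and 111 FPKM in the controls, 10.9-fold higher (log2 fold change 3.33, SE 0.10, limma adjusted p = 1.30e-10), and from 9.11 and 11.1 FPKM to 143, 155 and 143 FPKM in the Mct1f/fMb1Cre cells, 14.6-fold higher. Socs3, best known for restraining signals through gp130 and STAT3, rose least. It went from 5.63 and 7.49 FPKM to 33.5 and 30.9 FPKM in the controls, 4.91-fold higher (log2 fold change 2.14, SE 0.10, limma adjusted p = 3.71e-09), but only from 7.78 and 7.56 FPKM to 17.4, 18.4 and 19.4 FPKM in the Mct1f/fMb1Cre cells, 2.40-fold higher (log2 fold change 1.16, adjusted p = 3.08e-07).

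**Figure D2:**
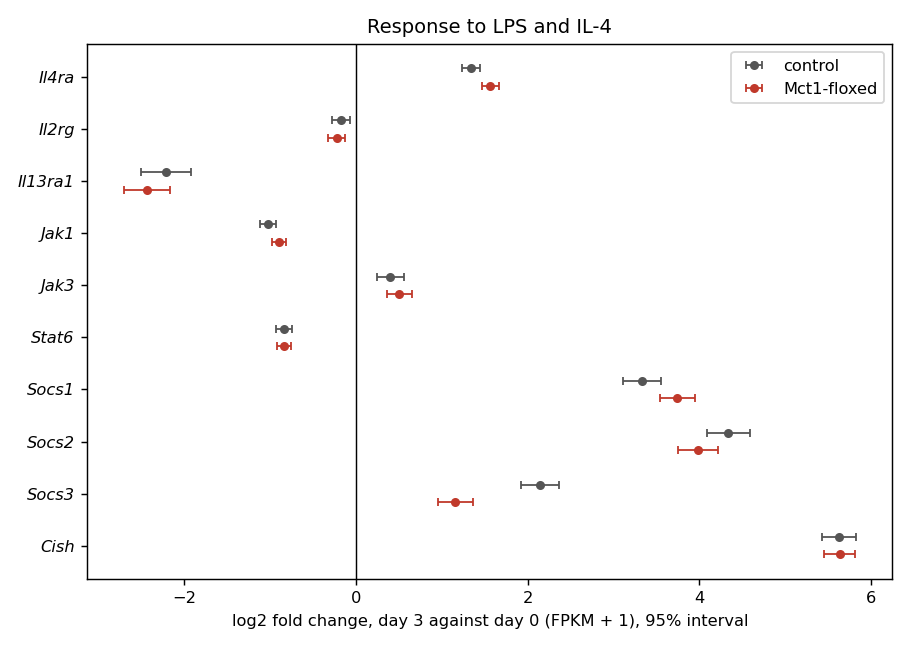
Log2 fold change of each gene between day 3 and day 0 (x axis, log2(FPKM + 1) scale) in control and Mct1f/fMb1Cre ("Mct1-floxed") cells; points are limma estimates and bars their 95% intervals. For Socs3 the intervals are apart (2.14 against 1.16), and by less also for Il4ra (1.34 against 1.56), while those of Stat6 and Cish nearly coincide.

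The second question was whether the pathway differed between the genotypes on day 3. One of the 10 genes was called, Socs3, which was lower in the Mct1f/fMb1Cre cells, beside 2.42% of all tested genes called in either direction. Without the fold limit 2 of the 10 passed, Socs3 and Socs1, beside 15.2% of all tested genes. The libraries of the genotypes did not overlap for 8 of the 10 genes (all but Il13ra1 and Jak3), beside 47.1% of all tested genes. The median log2 fold change of the 10 genes was -0.026 and that of all tested genes was -0.0100.

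Socs3 was at 33.5 and 30.9 FPKM in the controls and at 17.4, 18.4 and 19.4 FPKM in the Mct1f/fMb1Cre libraries, so that all 3 of these lay below both controls. The mean of 18.4 ± 1.03 FPKM (SD, n = 3) was 57.1% of the control mean of 32.2 ± 1.83 FPKM (SD, n = 2). The log2 fold change was -0.78 (SE 0.092, 95% interval -0.98 to -0.57, limma adjusted p = 3.55e-04), and the gene stood 158th of all tested genes by p. The adjusted p stayed between 3.03e-05 and 0.00867 under all 21 alternative settings, which included each library left out in turn, with log2 fold changes of -0.83 to -0.67.

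Socs1 lay on the other side. It was at 103 and 111 FPKM in the controls and at 143, 155 and 143 FPKM in the Mct1f/fMb1Cre libraries, with no overlap, and the mean of 147 ± 7.40 FPKM (SD, n = 3) was 137% of the control mean of 107 ± 5.56 FPKM (SD, n = 2). The log2 fold change of 0.45 (SE 0.093, 95% interval 0.25 to 0.66) passed the adjusted p (limma, 0.00873) but not the fold limit of 0.5. Without the first day 3 control library the log2 fold change was 0.40 and the adjusted p was 0.0924. Without the second control library it was 0.50 and the gene was called, with an adjusted p of 0.0369. With no filter on low values the adjusted p was 0.0578.

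The other inhibitors did not pass in the fit used throughout. Socs2 was at 72.5 and 74.4 FPKM in the controls and at 64.2, 63.0 and 59.1 FPKM in the Mct1f/fMb1Cre libraries, which lay below both controls at 84.6% of their mean (log2 fold change -0.24, 95% interval -0.47 to -0.0073, limma adjusted p = 0.159). Its adjusted p was 0.0349 with a pseudocount of 5 and 0.0119 with only the day 3 libraries in the fit. Cish was at 84.3 and 85.9 FPKM against 75.5, 83.1 and 82.3 FPKM, 94.4% of the control mean (log2 fold change -0.084, 95% interval -0.26 to 0.096, adjusted p = 0.551).

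None of the receptor chains, kinases or Stat6 passed on day 3. Apart from Il13ra1, their 95% intervals on the log2 scale ran from -0.23 at the lowest to 0.25 at the highest. Il4ra was at 193 and 190 FPKM in the controls and at 216, 199 and 211 FPKM in the Mct1f/fMb1Cre libraries, 109% of the control mean (log2 fold change 0.12, 95% interval 0.025 to 0.22, limma adjusted p = 0.0864). Il2rg was at 322 and 318 FPKM against 306, 283 and 284 FPKM, 91.0% of the control mean (log2 fold change -0.14, 95% interval -0.23 to -0.042, adjusted p = 0.0571), with an adjusted p of 0.0212 without the first Mct1f/fMb1Cre library. Jak1 was at 64.1 and 64.9 FPKM against 71.4, 68.5 and 70.4 FPKM (log2 fold change 0.12, 95% interval 0.035 to 0.20, adjusted p = 0.0585). Each of these had groups that did not overlap, and the adjusted p of Jak1 fell below 0.05 with no filter on low values (0.0446), with median-of-ratios scaling (0.048) and with quantile normalization (0.0387). Stat6 was at 49.2 and 50.5 FPKM against 47.2, 46.4 and 48.4 FPKM, 94.9% of the control mean (log2 fold change -0.075, 95% interval -0.16 to 0.010, adjusted p = 0.230). Jak3 had a log2 fold change of 0.11 (95% interval -0.035 to 0.25, adjusted p = 0.307). Il13ra1, at 0.20 to 0.49 FPKM in all 5 libraries, had a log2 fold change of 0.023 (95% interval -0.24 to 0.29, adjusted p = 0.931). The log2(FPKM + 1) scale understates changes at such a level, so this interval does not bound the fold change of Il13ra1 in FPKM.

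Beside these values, 2 of the 8 myeloid markers were called higher on day 3 in the Mct1f/fMb1Cre cells, Lyz2 (10.0 to 11.5 FPKM against 16.8 to 20.4 FPKM) and Adgre1, at far lower sums than on day 0. No T cell or NK cell marker was called. The part of other cells in the differences was not tested.

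On day 0 none of the 10 genes was called, beside 0.277% of all tested genes, and none passed the adjusted p alone, beside 0.416%. At an unadjusted p under 0.05 there was 1, Il4ra, with a log2 fold change of -0.11 and an adjusted limma p of 0.419. Socs3 was at 5.63 and 7.49 FPKM in the controls and at 7.78 and 7.56 FPKM in the Mct1f/fMb1Cre libraries, which were the higher ones here (log2 fold change 0.21, 95% interval -0.014 to 0.43, adjusted p = 0.462). Socs1 overlapped between the genotypes (log2 fold change 0.041, 95% interval -0.19 to 0.27, adjusted p = 0.916).

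**Figure D3:**
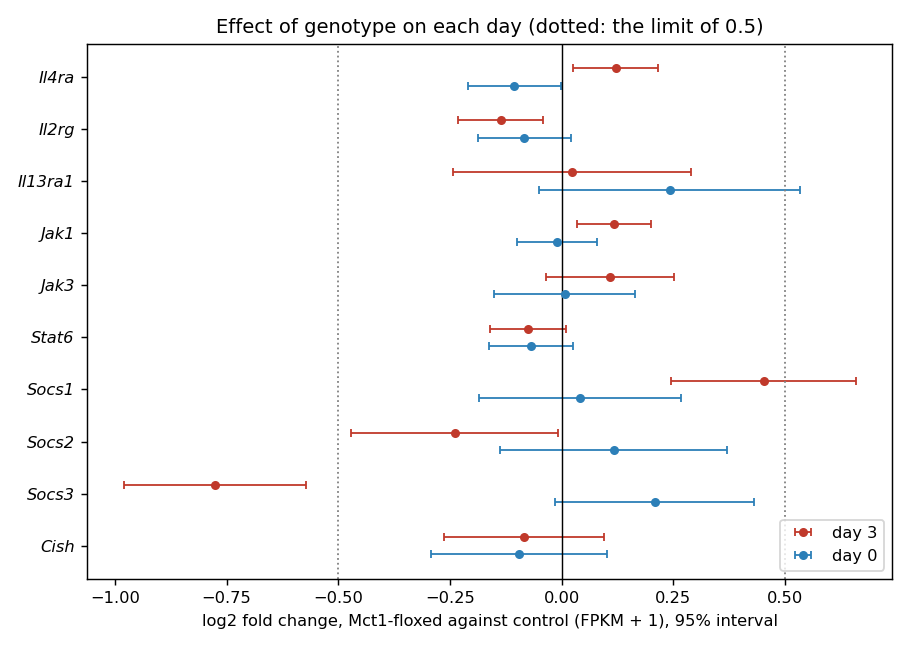
Log2 fold change of each gene between Mct1f/fMb1Cre ("Mct1-floxed") and control cells (x axis, log2(FPKM + 1) scale) on day 3 and day 0; points are limma estimates, bars 95% intervals and dotted lines the limit of 0.5 used for a call. Socs3 alone lies beyond the limit, at -0.78 on day 3 against 0.21 on day 0.

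Whether the genotype difference itself changed between the days was tested as the interaction in the same fit. Ddx3y was high in every day 3 library and in the first day 0 Mct1f/fMb1Cre library (31.1 FPKM). It was at 0.02 to 0.24 FPKM in the other day 0 libraries. The sex of the source was thus uneven in this test and between the genotypes on day 0, and its part was not tested. One of the 10 genes was called, beside 3.23% of all tested genes, and it was again the only one to pass the adjusted p, beside 9.42%. Socs3 had an interaction of -0.985 on the log2 scale (SE 0.14, 95% interval -1.29 to -0.68, limma adjusted p = 0.00257), the difference between the rise of 2.14 in the controls and of 1.16 in the Mct1f/fMb1Cre cells. Its adjusted p stayed at or below 0.0263 under all 20 alternatives, with values of -1.16 to -0.81. Socs1 had an interaction of 0.41 (95% interval 0.11 to 0.72, adjusted p = 0.0915). The value depended on the day 0 libraries. It was 0.56 without the first control and 0.26 without the second, and 0.28 without the first Mct1f/fMb1Cre library and 0.54 without the second. With all libraries kept, its limma adjusted p was 0.0471 with a pseudocount of 5 and 0.0302 with the replicate number as a block. Il4ra had an interaction of 0.23 (adjusted p = 0.0515), with values of 0.20 to 0.27 under the 20 alternatives. Socs2 had an interaction of -0.36 (adjusted p = 0.183). That of Socs2 was -0.55 without the first day 0 Mct1f/fMb1Cre library, -0.16 without the second and -0.22 without the second day 0 control library. The interactions of Stat6 and Cish were -0.0059 and 0.011, and their sign turned under several alternatives.

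Because Socs1 and Socs3 lay on opposite sides of the control level, the makeup of the inhibitor transcripts was also described, in a measure chosen after the values were seen. On day 3 the 4 inhibitors summed to 298 ± 6.20 FPKM (SD, n = 2) in the controls and to 308 ± 10.7 FPKM (SD, n = 3) in the Mct1f/fMb1Cre cells (exact two-sided permutation test, p = 0.40), with libraries at 293 and 302 FPKM against 300, 320 and 303 FPKM. The sums thus overlapped. Within them Socs1 made up 35.2% and 36.7% in the controls and 47.0% to 48.6% in the Mct1f/fMb1Cre libraries. Socs3 made up 10.8% and 5.98% on average, Socs2 24.7% and 20.2%, and Cish 28.6% and 26.1%. The ratio of Socs1 to Socs3 was 3.34 ± 0.36 in the controls (SD, n = 2) and 8.01 ± 0.60 in the Mct1f/fMb1Cre cells (SD, n = 3), and on day 0 it was 1.499 and 1.317. For each of the shares and for this ratio the exact two-sided permutation test gave p = 0.20, the smallest it can give for 3 libraries against 2.

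**Figure D4:**
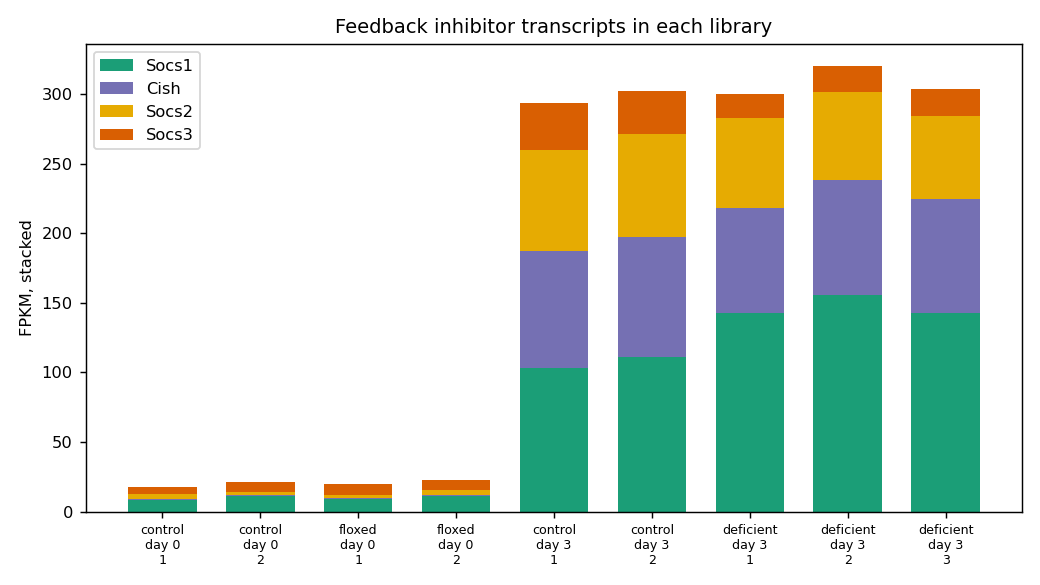
FPKM of Socs1, Cish, Socs2 and Socs3 stacked in each library (y axis, from 0); the x axis names the genotype, day and replicate, with "floxed" and "deficient" for Mct1f/fMb1Cre on day 0 and day 3. The day 3 bars have sums of 293 to 320 FPKM in both genotypes, with a taller Socs1 segment and a shorter Socs3 segment in the 3 Mct1f/fMb1Cre libraries.

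The rest of the pathway was read from lists of named genes. Of the receptor partners, which share the common gamma chain or bind IL-13 as a decoy, 6 of 7 were tested and 3 were called on day 3, beside the 2.42% of all tested genes given above, against which the counts of the next lists are also to be read. Il2ra, the high-affinity IL-2 receptor chain, was at 44.9 and 48.8 FPKM in the controls and at 27.1, 29.2 and 28.2 FPKM in the Mct1f/fMb1Cre libraries (log2 fold change -0.71, limma adjusted p = 5.93e-05). Il2rb, the signalling chain shared by IL-2 and IL-15, was at 16.4 and 17.7 FPKM against 11.9, 10.6 and 11.4 FPKM (log2 fold change -0.56, adjusted p = 0.00194). The call of Il2rb was lost with a pseudocount of 5 (-0.44) and with quantile normalization (-0.495). Il9r, the IL-9 receptor chain, was higher, at 2.15 and 2.19 FPKM against 5.78, 5.18 and 5.28 FPKM (log2 fold change 1.02, adjusted p = 4.19e-04). The median of the 6 was -0.019. The ligand genes Il4 and Il13 were listed at 0 to 0.10 and 0 to 0.05 FPKM and were not tested.

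Of the 8 other JAK and STAT genes, 1 was called on day 3, Stat4, which serves IL-12 signalling, at 75.2 and 79.8 FPKM in the controls and at 51.4, 52.6 and 54.8 FPKM in the Mct1f/fMb1Cre libraries (log2 fold change -0.54, limma adjusted p = 7.38e-04). Without the second day 3 control library the log2 fold change of Stat4 was -0.4998, just under the limit, with an adjusted p of 0.0136. The other 7 were not called, and the median of the 8 was -0.049. Without the fold limit 2 of the 8 passed the adjusted p, Stat4 and Stat5a, beside 15.2% of all tested genes. Stat5a, named here after its values were seen, was at 49.7 and 53.2 FPKM in the controls. It was at 39.9, 43.9 and 44.1 FPKM in the Mct1f/fMb1Cre libraries (log2 fold change -0.27, limma adjusted p = 0.00819). Of the 4 other SOCS genes none was called on day 3 by limma. With activation none of these 4 was called higher in the controls and 3 were called lower, beside 24.8% and 33% of all tested genes. These 3 were Socs5 (log2 fold change -2.42), Socs6 (-0.53) and Socs4 (-0.50). The calls of Socs6 and Socs4 lay at the limit and were lost with median-of-ratios scaling (-0.37 and -0.31), quantile normalization (-0.21 and -0.32) and a pseudocount of 5 (-0.29 and -0.36), and without the second day 0 control library (-0.494 and -0.493). That of Socs4 was also lost without the second day 3 control library (-0.478). In the Mct1f/fMb1Cre cells 0 were called higher and 2 lower, beside 23.4% and 33.2% of all tested genes. These were Socs5 (-2.29) and Socs6 (-0.55, with -0.69 to -0.17 under the alternatives), while Socs4 was at -0.45.

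Of the IL-4 and STAT6 response genes, 16 of 19 were tested, and 2 were called on day 3, both lower in the Mct1f/fMb1Cre cells. Ccl22, a chemokine that draws CCR4-bearing T cells, was at 36.1 and 36.7 FPKM in the controls and at 11.5, 11.5 and 12.02 FPKM in the Mct1f/fMb1Cre libraries (log2 fold change -1.56, SE 0.11, limma adjusted p = 1.27e-05). Cd86, a costimulatory ligand for T cells, was at 57.5 and 59.6 FPKM against 38.7, 40 and 42.8 FPKM (log2 fold change -0.52, adjusted p = 2.82e-04). Its log2 fold change was -0.496 without the second day 3 control library and -0.49 without the first Mct1f/fMb1Cre library of that day, -0.48 with a pseudocount of 5 and -0.48 with quantile normalization, all under the limit. Without the fold limit 6 of the 16 passed the adjusted p, beside 15.2% of all tested genes. Besides Ccl22 and Cd86 these were Bcl2l1, which protects against apoptosis (log2 fold change -0.40, adjusted p = 0.00169), and Batf (-0.28, 0.00397), which were lower in the Mct1f/fMb1Cre cells, and the MHC class II genes H2-Aa (0.20, 0.0147) and H2-Eb1 (0.17, 0.0283), which were higher. Fcer2a, which encodes the IL-4 target CD23 and is named after its values were seen, did not pass (log2 fold change -0.10, adjusted p = 0.260). The median of the 16 was -0.061. On activation 11 of the 16 rose and 4 fell in the controls, beside the 24.8% and 33% of all tested genes given above, and 10 rose and 2 fell in the Mct1f/fMb1Cre cells, beside 23.4% and 33.2%. Those that rose were led by Nfil3 (log2 fold changes 5.82 and 5.38) and Batf (3.57 and 3.17), both transcription factors. Those that fell in the controls were Tmem71 (-1.76) and the MHC class II genes H2-Aa (-0.81), H2-Eb1 (-0.61) and H2-Ab1 (-0.57), also named after their values were seen. In the Mct1f/fMb1Cre cells Tmem71 (-1.86) and H2-Aa (-0.61) were called. With median-of-ratios scaling H2-Eb1 (-0.40) and H2-Ab1 (-0.36) in the controls and H2-Aa (-0.39) in the Mct1f/fMb1Cre cells were under the limit. By limma, none of the genes in these pathway lists was called between the genotypes on day 0.

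**Figure D5:**
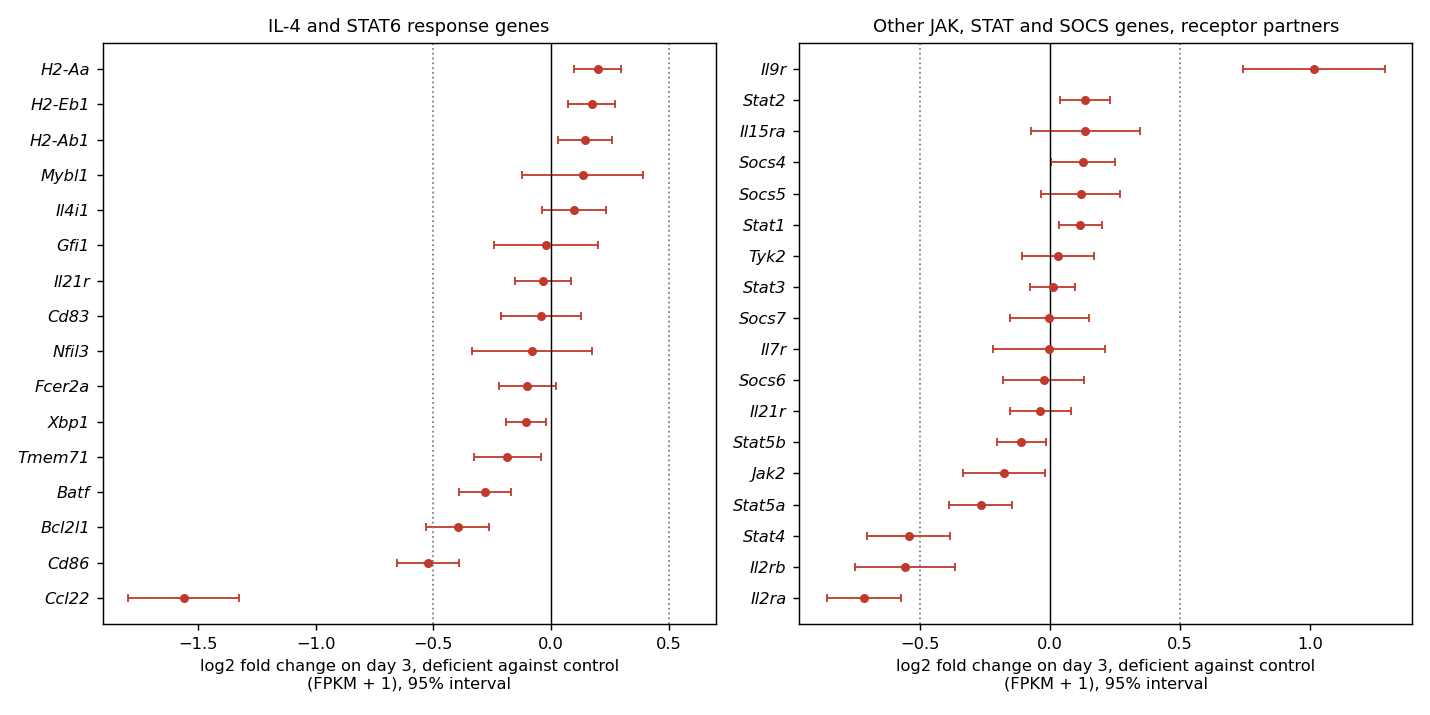
Log2 fold change on day 3 between Mct1f/fMb1Cre ("deficient") and control cells (x axis, log2(FPKM + 1) scale) for the IL-4 and STAT6 response genes (left) and for the other JAK, STAT and SOCS genes with the receptor partners (right); points are limma estimates, bars 95% intervals and dotted lines the limit of 0.5. Ccl22 lies farthest to the left at -1.56 and Il9r farthest to the right at 1.02.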

How the data were processed

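The authors deposited 1 table of FPKM values, rounded to 2 decimals, for 17596 genes and 9 libraries. The study states that the sequencing institute assembled and analysed the library data. The submitters' processing notes name Bowtie2 and the builds GRCm38 and mm10, and the annotation and the counting tool are not given in the sources used here. The labels name TRNzol for RNA extraction, the study's methods a column kit. Depth cannot be read from FPKM, so precision rests on the 2 or 3 libraries of a group.

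Groups came from the sample labels. The deposited FPKM were transformed as log2(FPKM + 1), which understates the change of low genes. Genes were kept where the 9 libraries averaged 1 FPKM or more, which left 10823. One limma model (limma 3.58.1, R 4.3.3) gave each of the 4 groups its own mean, moderated variances by empirical Bayes along an intensity trend, and adjusted p over all kept genes after Benjamini and Hochberg. A call required an adjusted p below 0.05 together with a change of more than 0.5 on the log2 scale. Single values were compared by exact permutation tests in scipy 1.17.1 (Python 3.11.15), and figures were drawn with matplotlib 3.10.9. On data simulated from these libraries, with 100 genes changed by 0.75 on the log2 scale and 100 by 1.5 on day 3, the fit called 96% and 98% of them, and 2 of 10623 unchanged genes. For the interaction it called 79% and 96%, and 8 unchanged genes. The changed genes were drawn only from those above a low level. The noise was normal, with the same spread for a gene in all groups. The shares called therefore do not cover low genes. Uneven spread between groups, or libraries that differ in cell content or sex, were not simulated.

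The 10 genes and the lists were chosen with earlier results of these data known. All 10 are named. Of each pathway list, the genes called on day 3 or by the interaction are named. For activation the rule allowed at most 4 of the largest per list, and not all of these are described. Among those left out were Il2ra (log2 fold change 3.49 in the controls), Stat5a (1.64), Jak2 (-1.06) and Tyk2 (-1.06). Alternatives were the pseudocount, the filter, 3 scalings, the groups fitted, a block on replicate number, the trend, the fold limit and each library left out. Promoters and positions come from RefSeq (GRCm38.p6), and transcript sequences and exons from GENCODE release vM21.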

Additional observations from a re-analysis of the deposited data

Results flagged for a closer look

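The genotype difference changed between day 0 and day 3, by a test of that change itself (the interaction in limma on the log2(FPKM + 1) scale), for 1 of the 10 pathway genes and for 6 genes of the pathway lists, beside 3.23% of all tested genes. The pathway gene was Socs3, at -0.985 (adjusted p = 0.00257). The genes of the lists were Ccl22 at -1.77 (adjusted p = 2.98e-04), Il2rb at -0.66 (0.0121), Il2ra at -0.59 (0.00516), Cd86 at -0.55 (0.00502), Stat4 at -0.52 (0.0143) and Il9r at 0.70 (0.0387). Among the genes read as checks it was also called for Slc16a1 at -1.06 (4.24e-04), the myeloid markers Lyz2 at 0.57 (0.0466) and Adgre1 at 0.51 (0.0289), and the erythroid marker Hba-a1 at -0.91 (0.0041). Hba-a1 was called higher in the Mct1f/fMb1Cre cells on day 0 (log2 fold change 0.64, limma adjusted p = 0.0293). It was then at 49.5 and 44.8 FPKM in the controls and at 82.2 and 66.4 FPKM in the Mct1f/fMb1Cre libraries. On day 3 it was at 0 to 0.30 FPKM in every library. The part of other cells, or of the uneven sex of the source, in the pathway differences was not tested. The groups held 2 or 3 libraries and were too small to look for a library far from the rest.

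Some of these calls rested on single libraries. Without the first day 0 control library the interaction of Stat4 was -0.38, that of Cd86 -0.46 and that of Il9r 0.44, all under the limit of 0.5. Without the second day 3 control library the adjusted p was 0.0615 for Stat4 and 0.0541 for Il2rb. The interaction of Il9r lost its call whenever 1 of 8 of the 9 libraries was left out, with adjusted p up to 0.113, and those of Lyz2 and Adgre1 each lost theirs for 6 of the 9, with values of 0.41 to 0.66 and 0.39 to 0.53.

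Others rested on a processing choice. With no filter on low values the adjusted p was 0.0684 for Stat4, 0.0647 for Il2rb and 0.137 for Il9r. With quantile normalization Stat4 and Il2ra were just under the limit (-0.4997 and -0.494) and the adjusted p of Il9r was 0.0839. With a pseudocount of 5 Stat4 was at -0.49 and Il9r at 0.27 (adjusted p = 0.29), with a common total Stat4 was at -0.4996, and without the variance trend the adjusted p of Il9r was 0.0636. With no filter the adjusted p was 0.161 for Lyz2 and 0.0869 for Adgre1.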

How the results depend on the processing

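Of the 10 genes, the number called was 8 and 9 for activation in control and Mct1f/fMb1Cre cells and 0 for the genotype on day 0, and stayed within 1.5 times of that under the alternatives run. On day 3 it was 1, became 0 with a log2 limit of 1 and 2 with no limit, and ranged from 1 to 2 with a library left out. For the interaction it was 1, became 0 with a log2 limit of 1, and ranged from 1 to 2 with a library left out. The sign turned for Jak1 on day 0 (0.0013 with median-of-ratios scaling), Jak3 on day 0 (-0.0053 with a common total), Il2rg on activation in controls (0.040 with median-of-ratios scaling), and the interactions of Stat6 (0.018 with a common total, 2.6e-04 with median-of-ratios scaling, 0.028 with quantile normalization) and Cish (-0.053 with a pseudocount of 5). With a library left out, the ranges that crossed 0 were -0.042 to 0.11 for Il13ra1 on day 3, -0.032 to 0.010 for Jak1, -0.036 to 0.048 for Jak3, -0.11 to 0.19 for Socs1, -0.076 to 0.31 for Socs2 and -0.24 to 0.046 for Cish on day 0, and -0.030 to 0.018 for the interaction of Stat6 and -0.13 to 0.15 for that of Cish. None of these values had passed the test except that of Il2rg, and the cause was not tested.

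With the replicate number as a block, 1 gene was called on day 3, 0 on day 0, 1 by the interaction, 8 for activation in controls and 8 in Mct1f/fMb1Cre cells (Jak3 at 0.49), and the interaction of Cish was -0.0074. Whether the numbers pair the libraries is not given in the labels. Deviations of same-numbered libraries correlated at -0.12 in the controls of the 2 days and at 0.053 and 0.064 in the Mct1f/fMb1Cre cells. Between genotypes they correlated at -0.068 to -0.045. In a group of 2 libraries the deviations mirror each other, so these values cannot decide whether libraries are paired. A crossed pairing of the control libraries, chosen after seeing the data, also called 8.

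Depth is unknown, so no limit from counting is given, and low levels such as that of Il13ra1 on day 3 are known to the 2 decimals of the table.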

Other observations

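Phosphatases, PIAS proteins, adaptors and STAT6 cofactors were the largest list around the pathway, with 19 of 20 genes tested. None was called between the genotypes on day 3 by limma, and 5 of the 19 passed the adjusted p without the fold limit, beside 15.2% of all tested genes. They were named after their values were seen: Inpp5d (log2 fold change 0.21) and Crebbp (0.23) were higher in the Mct1f/fMb1Cre cells, and Dok1 (-0.29), Ptpn2 (-0.19) and Pias2 (-0.18) were lower. Inpp5d encodes the inositol phosphatase SHIP1, Crebbp an acetyltransferase that acts with STAT6, and Ptpn2 a phosphatase of JAK and STAT proteins. The median of the 19 was 0.079, beside -0.0100 for all tested genes. With activation 3 of the 19 rose and 11 fell in the controls, beside 24.8% and 33% of all tested genes, and 2 rose and 9 fell in the Mct1f/fMb1Cre cells, beside 23.4% and 33.2%.

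The tested genes whose values followed those of Socs3 most closely over the 9 libraries were Rab20, a small GTPase of endosomes, with Pearson's r of 0.995, Fam216a (0.995) and Sytl3, a synaptotagmin-like protein (0.995). This is a description of libraries that fall into 2 days and share the culture, so that any gene that rises with activation is partly alike. On day 3 the log2 fold change between the genotypes was -0.56 for Rab20, -0.49 for Fam216a and -0.97 for Sytl3. The day 3 libraries were among the 9 used to pick these genes. Lower values there are thus partly set by the choice and are no separate result.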
